A study of Mus musculus with 3 samples.

Results

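Il10 and the genes of its receptor chains, Il10ra and Il10rb, were followed through the immune cells of the inflamed mouse sciatic nerve. They were chosen by name, as the ligand and the pair of chains that make up the IL-10 receptor, and they are 3 of the 32285 genes in the matrices. The cells were CD45+ leukocytes of the sciatic nerve, profiled by single-cell RNA-Seq. The mice were NOD.AireGW/+ animals with neuropathy, which carry 1 mutated copy of the autoimmune regulator gene Aire on the diabetes-prone NOD background and develop autoimmune neuropathy spontaneously. Libraries 1 and 2 each came from 1 mouse and library 3 from 2 mice pooled, so there were 4 mice in all. The mice were female per the methods, and no age is given in the sources used here. All 3 libraries belong to this 1 group: every animal carried the same mutation and had neuropathy, so the values describe where the genes were expressed in diseased nerves and not what the disease changed.

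IL-10 is a cytokine best known for restraining inflammation. In this mouse model, the study cites earlier work that names IL-10 as disease-promoting. IL-10 is secreted by regulatory T cells, activated helper T cells, some B cells and some macrophages, and macrophages and dendritic cells are its best-known targets. It binds IL10RA, the ligand-binding chain, which then pairs with IL10RB, an accessory chain shared with the receptors for IL-22 and the lambda interferons. The kinases JAK1 and TYK2 on the chains then activate STAT3, which switches on genes such as Socs3 that damp inflammatory signalling.

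On the mm10 genome the protein-coding gene Il10 (ENSMUSG00000016529) spans 131019845 to 131024974 of chromosome 1 on the plus strand. Il10ra (ENSMUSG00000032089) spans 45253837 to 45269149 of chromosome 9 on the minus strand, and Il10rb (ENSMUSG00000022969) spans 91406164 to 91425834 of chromosome 16 on the plus strand. Thus, the ligand and its receptor chains lie on 3 different chromosomes.

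The 3 libraries held 3926, 8311 and 1533 cells with 22983991, 55120460 and 3399733 UMIs (unique molecular identifiers, each marking 1 captured RNA molecule), and 3848, 8256 and 1533 cells passed the study's filter. Library 3 was the shallowest, with a median of 1726 UMIs per cell against 3985.5 and 4659. The libraries shared between 7 and 36 cell barcodes per pair. Cells were sorted into 9 classes by marker genes that did not include Il10 or its receptor chains: conventional CD4 T cells (a Cd4 UMI, no Cd8a, Cd8b1 or Foxp3 UMI), Foxp3 T cells, CD8 T cells, natural killer (NK) cells, B cells, plasma cells, macrophages, monocytes and dendritic cells. Every marker of its own list was detected in every sum of the NK, B, plasma, macrophage, monocyte and dendritic classes, as were the 4 T cell markers in the sums of the 3 T cell classes. These markers set the gates, so their detection follows in large part from the gating and is no check of the classes. Markers of other lists were present too, such as the B cell list at 1361 to 1661 CPM in the plasma sums. Library 2 held 2777 of the macrophages, library 1 held 11 and library 3 held 4. UMIs were summed per library and class, sums of fewer than 10 cells were left out, and library 3 therefore gave no macrophage, plasma or dendritic value. Levels are given as TMM-scaled CPM (counts scaled to a common library total) of these sums, and differences as log2 values from edgeR's quasi-likelihood test with the library as a block.

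**Figure D1:**
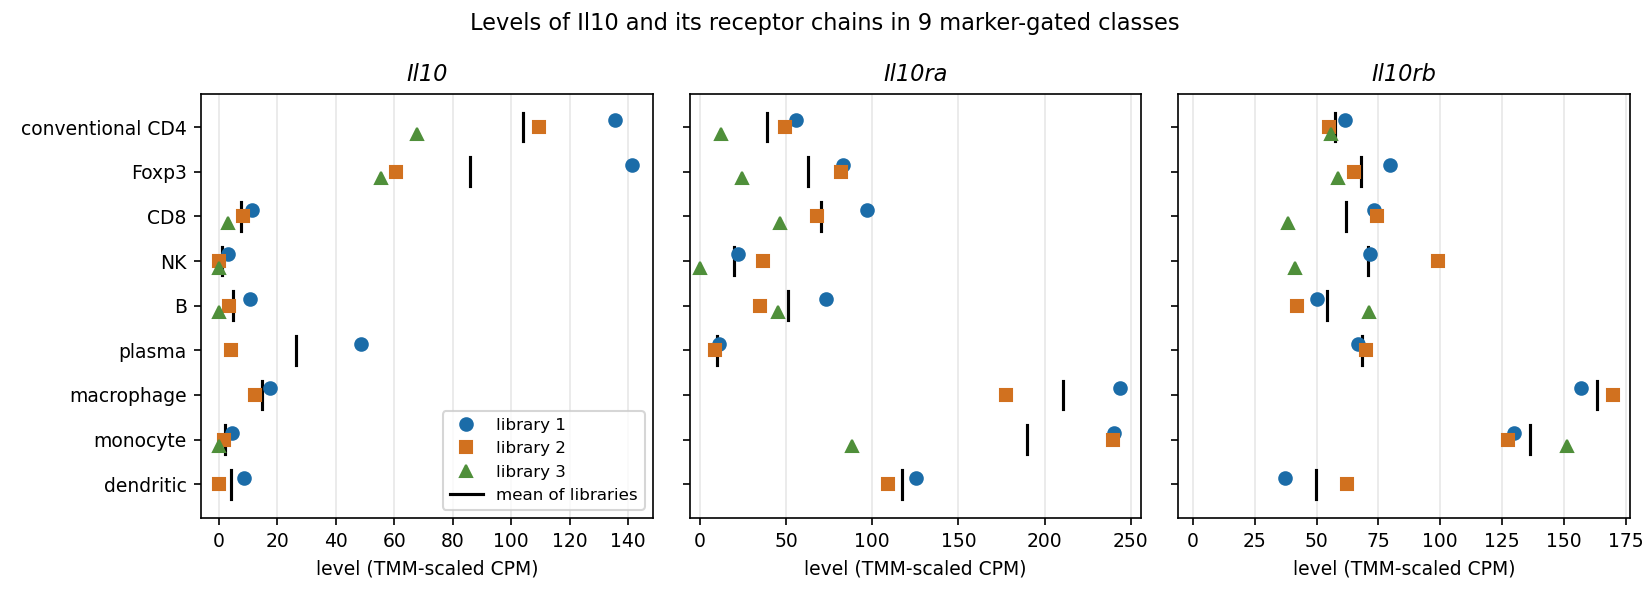
Level of each gene (TMM-scaled CPM, x axis) in the 9 marker-gated classes (y axis), with 1 point per library and a bar at the mean of the libraries. Il10 was at 55.4 CPM or more in every conventional CD4 and Foxp3 sum and at 48.7 CPM or less elsewhere, whereas Il10ra and Il10rb had their highest means in macrophages and monocytes.

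Il10 had its highest levels in the conventional CD4 and Foxp3 T cell classes. In conventional CD4 cells it stood at 135, 109 and 67.9 CPM in libraries 1, 2 and 3 (408, 393 and 28 UMIs). In Foxp3 cells, the regulatory T cell class, it stood at 141.5, 60.7 and 55.4 CPM (373, 198 and 16 UMIs). These 2 classes overlapped, and library 1 was the highest in both. In CD8 cells the values were 11.3, 8.32 and 3.08 CPM (68, 42 and 2 UMIs), below every conventional CD4 and Foxp3 value.

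Il10 was higher in conventional CD4 than in CD8 cells, with a log2 difference of 3.74 (SE 0.30, edgeR quasi-likelihood test, adjusted p = 1.074e-09), in 3 of 3 libraries, in a comparison where 9.25% of the 9634 genes tested were called. Against B cells, where Il10 was at 10.6, 3.50 and 0 CPM (19, 3 and 0 UMIs), conventional CD4 cells were higher by 4.19 (SE 0.41, adjusted p = 6.957e-09, 30.1% of genes called), again in 3 of 3 libraries. Between Foxp3 and conventional CD4 cells no difference passed the threshold (log2 difference −0.40, SE 0.25, adjusted p = 0.5458, 3.73% of genes called). The Foxp3 class was higher in library 1 and lower in libraries 2 and 3. Regulatory T cells whose Foxp3 RNA was not captured fall into the conventional CD4 class if they held a Cd4 UMI. Median depths in that class were 3167, 2617 and 1810 UMIs in libraries 1 to 3. How many such cells it held was not tested, so its Il10 cannot be assigned to non-regulatory cells alone.

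Outside the T cell classes, Il10 was below every conventional CD4 and Foxp3 value in each sum. Plasma cells, the antibody-secreting descendants of B cells, had 48.7 CPM in library 1 and 4.03 CPM in library 2 (35 and 5 UMIs). Macrophages, which can make IL-10 in other settings, had 17.4 and 12.4 CPM (2 and 244 UMIs), above the CD8 values in 2 of 2 libraries. Monocytes had 4.33, 1.88 and 0 CPM, dendritic cells 8.57 and 0 CPM, and NK cells 3.11, 0 and 0 CPM, with at most 3 UMIs in any of these sums. In macrophages Il10 was lower than in conventional CD4 cells, with a log2 difference of −2.86 (SE 0.34, adjusted p = 1.905e-07, 39.1% of genes called), in 2 of 2 libraries. Under strict gates, cells held no T, B, macrophage or dendritic marker UMI of another class. Exceptions were B markers in plasma cells, Trac in NK cells and dendritic markers in monocytes. With these gates the difference between macrophages and conventional CD4 cells was −6.04. Plasma cells had more Il10 than B cells by 1.62 (SE 0.57, adjusted p = 0.02664, 38.4% of genes called), a call that rested on library 1: without it the difference was 0.39 (adjusted p = 0.8654). The direction turned with strict gates (−0.30, adjusted p = 0.9545). The call was also lost with gates needing only more own than other marker UMIs (0.16, adjusted p = 0.8674), without library 3 (1.61, adjusted p = 0.06285), with DESeq2 (1.64, adjusted p = 0.06242) and without the library block (1.74, adjusted p = 0.1299).

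The order of the Il10 means was conventional CD4 (104 ± 34.1 CPM, SD, n = 3), Foxp3 (85.9 ± 48.3, n = 3), plasma (26.4 ± 31.6, n = 2), macrophage (14.9 ± 3.54, n = 2), CD8 (7.57 ± 4.17, n = 3) and B cells (4.70 ± 5.39, n = 3), followed by dendritic cells, monocytes and NK cells. In this order the ranges of neighbours overlapped except between Foxp3 and plasma cells and between macrophages and CD8 cells. The macrophage range rests on 2 UMIs in library 1 and, in library 2, mostly on cells with T cell marker UMIs, so its place above CD8 cells is not firm.

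Conventional CD4 and Foxp3 cells were also above CD8 cells in the share of cells with an Il10 UMI once each cell had been thinned to 1000 UMIs. In conventional CD4 cells the share was 12.0%, 8.61% and 4.58% in libraries 1 to 3, with exact 95% binomial intervals of 9.33 to 15.1%, 6.77 to 10.7% and 1.86 to 9.20%. In Foxp3 cells it was 14.55%, 7.82% and 5.62%. The mean was thus 9.33% in Foxp3 and 8.39% in conventional CD4 cells, an order that turned with thinning to 600 UMIs (5.90% and 7.45%). CD8 cells stayed at 1.19%, 0.888% and 0.426%. In B cells, used with dendritic cells as the level that free RNA could give, it was 0.588%, 0.380% and 0 of 66 cells, which allows a share of up to 4.55%, and dendritic cells had none in 29 and 126 cells, which allows up to 10.3% and 2.38%. Hence, the CD8 intervals (0.573 to 2.18%, 0.407 to 1.68% and 0.0108 to 2.35%) overlapped those of B cells in each library. These shares alone did not separate CD8 cells from that level. Some B cells can make IL-10 themselves, so their share may not be free RNA alone. In CPM, CD8 cells were above B cells in 3 of 3 libraries, on 2 against 0 UMIs in library 3, and this comparison was not tested. Median depths in library 1 were 3167 UMIs in conventional CD4 cells, 4252 in CD8 cells, 4159 in B cells and 12278 in dendritic cells. Without thinning, the mean shares were 14.7% ± 4.83 in conventional CD4, 22% ± 11.5 in Foxp3, 2.52% ± 1.58 in CD8 and 1.30% ± 1.39 in B cells (SD, n = 3). These intervals cover counting error only.

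Il10-positive CD4 cells also carried more Il10 RNA per cell than positive cells of the other classes with UMIs in all libraries. Positive conventional CD4 cells held on average 3.74, 2.81 and 1.75 UMIs in libraries 1 to 3, with up to 20 in 1 cell, and positive Foxp3 cells 2.70, 1.90 and 1.23. Positive CD8 cells held 1.89, 1.45 and 1 UMI, and 75.0%, 65.5% and 100% of them had a single one. The most in 1 cell was 18, 5 and 1 in the CD8 cells of libraries 1 to 3, and 9 in the B cells of library 1. In conventional CD4 cells single-UMI cells made up 32.1%, 36.4% and 56.25%.

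In all, the libraries held 1422, 1295 and 110 Il10 UMIs, in 477, 598 and 71 cells. T cells of every kind held 87.55%, 73.7% and 91.8% of them, and the conventional CD4 and Foxp3 classes together 54.9%, 45.6% and 40.0%. Conventional CD4 cells alone held 28.7% of the Il10 UMIs of library 1 while making up 15.7% of its cells, and 30.3% of those of library 2 while making up 10.1%. In library 2, macrophages were 33.6% of the cells and held 18.8% of the Il10 UMIs.

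**Figure D2:**
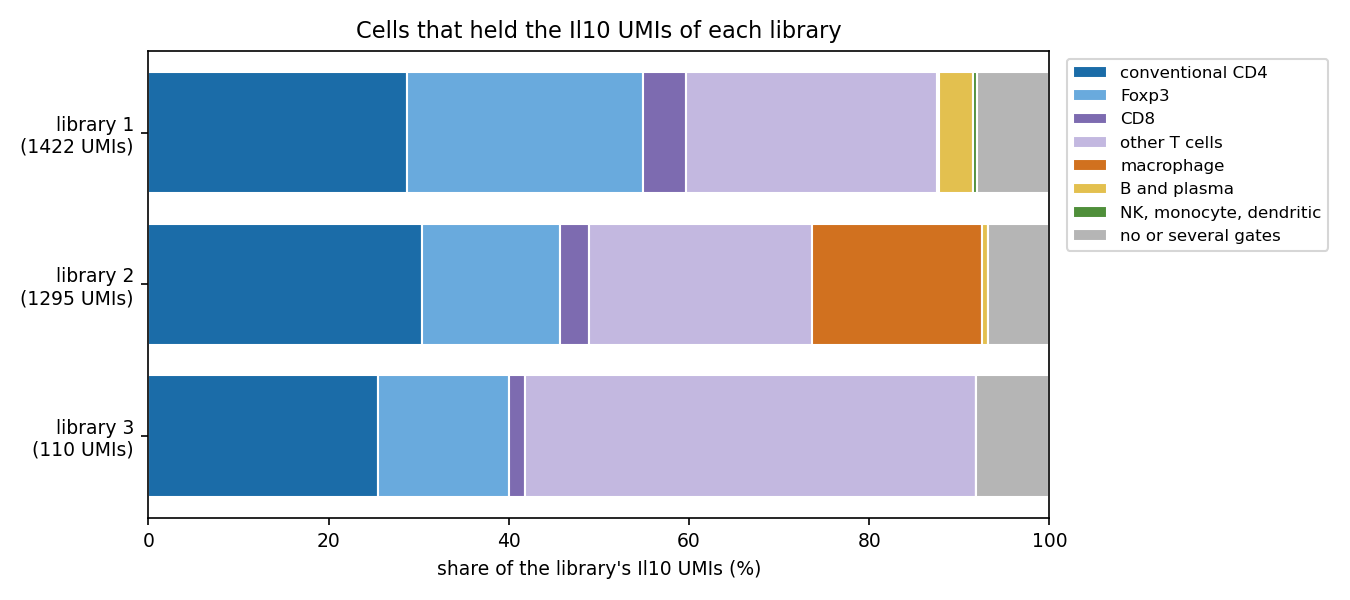
Share of each library's Il10 UMIs (x axis, %) held by each class of cells, with 1 bar per library. "Other T cells" are T cells with no Cd4, Cd8 or Foxp3 UMI or with a combination of them. T cells held most of the Il10 UMIs in each library, and macrophages held 18.8% in library 2.

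The Il10 UMIs of macrophages, plasma cells and B cells stood mostly in cells that also held T cell marker UMIs (Cd3d, Cd3e, Cd3g or Trac). Of the 2777 macrophages of library 2, 949 held such a UMI and 1828 did not. The 949 had 221 Il10 UMIs (19.8 unscaled CPM, exact 95% Poisson interval 17.3 to 22.6) and the 1828 had 23 (1.65 CPM, 1.05 to 2.48). In this library, from 1 mouse, the level was thus lower in macrophages without T cell marker UMIs. Of these cells, 0.875% had an Il10 UMI, against 12.1% of the others. The Poisson intervals did not overlap, but they cover counting error only and treat UMIs as independent. The Il10 UMIs were clumped, with up to 11 in 1 macrophage, so the intervals are too narrow. The receptor chains did not follow this split in the same way: Il10ra was at 153 CPM without and 121.5 CPM with T cell marker UMIs, and Il10rb at 148 and 114 CPM. The medians of total UMIs were 7473 and 10828 per cell.

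Plasma cells of library 1 gave a like picture. The 37 with a T cell marker UMI held all 35 Il10 UMIs (30.5 unscaled CPM, 21.2 to 42.4), in 10 cells, 1 of which had 16. Unscaled values are not on the scale of the TMM-scaled class levels, which the factor of 0.4192 raised for this plasma sum. The other 20 plasma cells held none, with an upper bound of 6.20 unscaled CPM. B cells of library 1 had 15 Il10 UMIs in 157 cells with a T cell marker UMI and 4 in 205 cells without. Per 100 Cd3e UMIs, Il10 stood at 8 and 4.95 in the macrophages of libraries 1 and 2, at 13.6 and 3.27 in the plasma cells and at 10.4 and 12.5 in the B cells. In the same libraries it stood at 4.13 and 3.33 in all T cells and at 7.71 and 6.76 in conventional CD4 cells. The ratio was therefore above that of all T cells in these classes, except in plasma cells of library 2, and above that of conventional CD4 cells in B cells and in the macrophages and plasma cells of library 1. These ratios rest on few Il10 UMIs (2 in the macrophages of library 1, 3 in the B cells and 5 in the plasma cells of library 2). The summed TMM-scaled level of the 4 T cell markers was 619 to 738 CPM in the macrophage sums, 326 to 861 CPM in the plasma sums and 3950 to 4351 CPM in the conventional CD4 sums. The part of RNA from T cells in the Il10 of macrophages, plasma cells and B cells was not tested beyond these values.

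**Figure D3:**
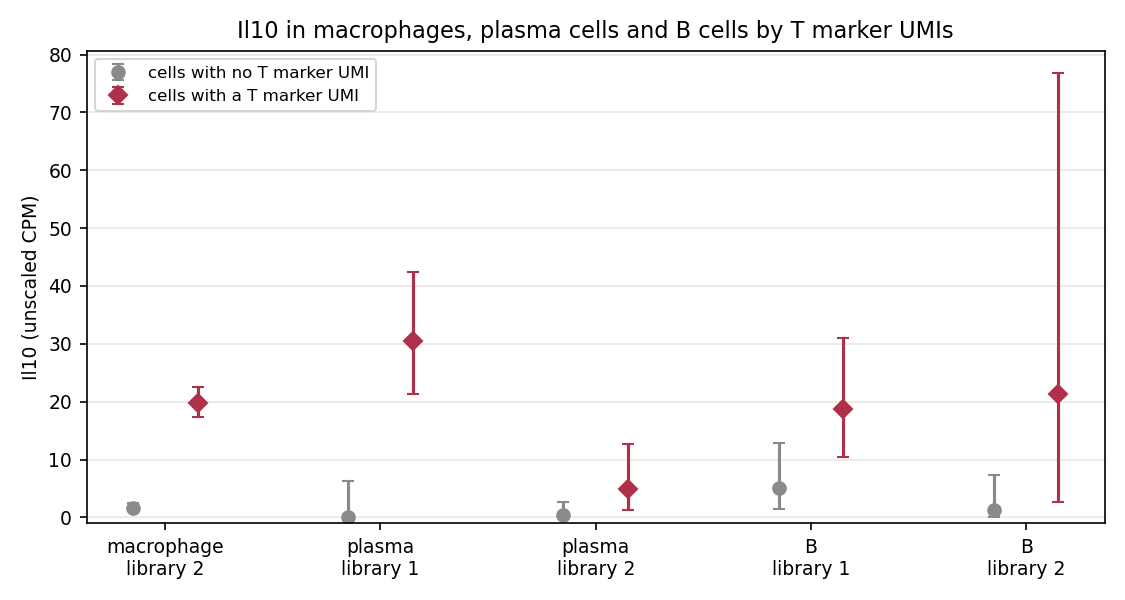
Il10 level (y axis, unscaled CPM with exact 95% Poisson intervals) in macrophages, plasma cells and B cells, split by whether a cell held a UMI of Cd3d, Cd3e, Cd3g or Trac (x axis, by class and library). In the macrophages of library 2 the level was 1.65 CPM without and 19.8 CPM with such UMIs, and in the plasma cells of library 1 it was 0 and 30.5 CPM.

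Within conventional CD4 cells, Il10 was compared between cells with and without a UMI of 6 other genes. CPM values here are scaled within each split and are not on the scale of the class levels. Maf encodes c-Maf, a transcription factor known to drive Il10 in helper T cells. Cells with a Maf UMI had 212, 191 and 148 CPM of Il10 in libraries 1 to 3, and cells without it 87.4, 49.7 and 34.2 CPM. All 3 values with Maf lay above all 3 without it, and the difference was 1.63 (SE 0.16, edgeR quasi-likelihood test, adjusted p = 1.793e-05, 1.91% of 8054 genes called). Without the library block it was 1.63 with an adjusted p of 0.9522, a fit in which 1 gene was called. Thinned shares with an Il10 UMI were 18.15%, 13.1% and 6.67% with Maf and 4.27%, 4.16% and 3.23% without, with overlapping intervals in library 3.

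Tcf7 encodes TCF1, a factor of naive and stem-like T cells, and cells with it had little Il10. Cells with a Tcf7 UMI had 6.75, 23.9 and 0 CPM of Il10 (7, 22 and 0 UMIs), against 256, 174 and 109.5 CPM in cells without. The groups did not overlap, and Il10 was lower with Tcf7, with a log2 difference of −3.87 (SE 0.29, adjusted p = 5.493e-09, 3.49% of 7746 genes called). Leaving out library 1 gave −2.98 and leaving out library 2 gave −5.30. With thinning to 1000 UMIs, 0 of 186, 0.948% of 211 and 0 of 33 cells with Tcf7 had an Il10 UMI, against 18.5%, 11.3% and 5.83% of those without, so the difference was present although cells with Tcf7 were the deeper ones (median 4191 against 2685.5 UMIs in library 1).

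Prdm1 encodes Blimp-1, a factor of effector and peripheral helper T cells, and Cxcr6 a chemokine receptor of tissue-homing T cells. Il10 was at 281, 277 and 203 CPM with Prdm1 and at 153, 117 and 75.0 CPM without. It was higher with Prdm1 by 1.08 (SE 0.18, adjusted p = 3.936e-05, 1.97% of 5233 genes called), in 3 of 3 libraries and with no overlap. The value with Prdm1 in library 3 came from 6 Il10 UMIs in 10 cells, the fewest cells allowed in a sum. With Cxcr6 it was at 260, 194 and 104 CPM, and without at 85.2, 112 and 79.8 CPM. Here the difference was 1.15 (SE 0.16, adjusted p = 3.614e-10, 3.49% of 7701 genes called), in 3 of 3 libraries, with values that overlapped across libraries. The Prdm1 call was lost without library 2 (0.97, adjusted p = 0.7916) and the Cxcr6 call without library 1 (0.73, adjusted p = 0.417). Both were lost with DESeq2 (adjusted p = 0.1298 and 0.09498) and without the library block (1.17 and 1.13, adjusted p = 0.9057 and 0.4895).

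The cytokines Il21 and Ifng, products of activated helper T cells, showed smaller differences. With an Il21 UMI, Il10 was at 226 and 201 CPM in libraries 1 and 2, and without one at 147 and 107 CPM. Library 3 had 8 cells with Il21, too few for a sum. The difference of 0.76 (SE 0.14, adjusted p = 0.01949, 2.00% of 7501 genes called) therefore rested on 2 libraries, and it was 0.78 with DESeq2 (adjusted p = 0.9999) and 0.94 without the block (adjusted p = 0.7837). Thinned shares with an Il10 UMI were 14.8% and 17.5% with Il21 in libraries 1 and 2, and 11.5% and 6.8% without. Their intervals overlapped in library 1. For Ifng the values were 200, 167 and 88.3 CPM with and 148, 104 and 77.1 CPM without, and the difference of 0.54 (SE 0.15, adjusted p = 0.08322, 1.71% of 7963 genes called) did not pass the threshold, although it was in the same direction in 3 of 3 libraries.

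**Figure D4:**
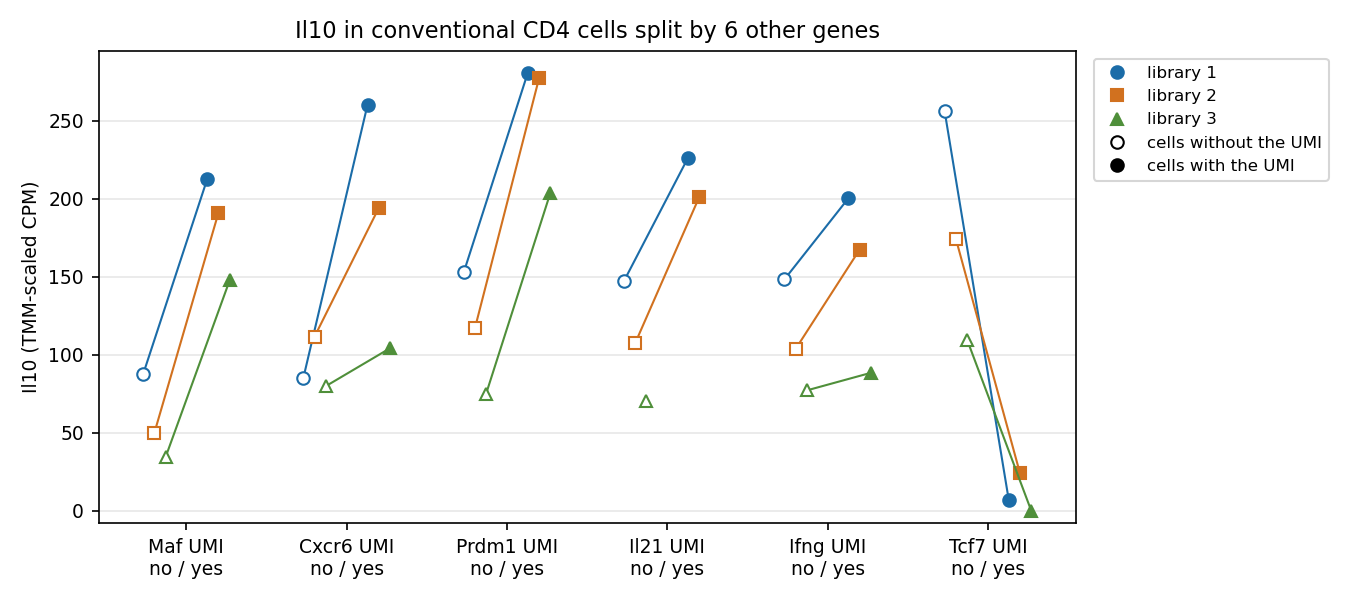
Il10 level (y axis, TMM-scaled CPM within each split) in conventional CD4 cells without (open) and with (filled) a UMI of Maf, Cxcr6, Prdm1, Il21, Ifng or Tcf7 (x axis), joined by library. Il10 was higher with Maf, Cxcr6, Prdm1 and Ifng in 3 of 3 libraries and lower with Tcf7 in 3 of 3, and library 3 had no sum of cells with Il21.

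Seen from the Il10-positive cells, Maf was the most widely shared of these genes. A Maf UMI was found in 75.2%, 75.0% and 75.0% of the Il10-positive conventional CD4 cells of libraries 1 to 3, against 48.0%, 44.3% and 32.7% of the other conventional CD4 cells, without thinning. A Tcf7 UMI was found in 5.50%, 3.57% and 0% of them, against 37.0%, 29.8% and 22% of the others. Il21 was present in 17.4%, 25% and 12.5% of the Il10-positive cells and in 14.0%, 14.8% and 3.77% of the rest.

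Foxp3 cells showed a like order in thinned shares, given here without a test. With Maf, 17.7%, 11.1% and 7.41% of Foxp3 cells had an Il10 UMI, and without Maf 5.21%, 2.46% and 2.86%. With Prdm1 the shares were 21.0% and 12.6% in libraries 1 and 2, against 12.8% and 6.68% without. In libraries 1 and 2 the intervals of the Maf groups did not overlap, but those of the Prdm1 groups did.

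Il10ra was higher in myeloid than in lymphoid cells. Macrophages had 244 and 178 CPM in libraries 1 and 2, monocytes 240.4, 239.9 and 88.3 CPM in libraries 1 to 3, and dendritic cells 126 and 109 CPM. All but the monocyte value of library 3 lay above the highest lymphoid value, which was 97.1 CPM. The mean of the myeloid classes was above that of the lymphoid classes, plasma cells left out, by 1.66 (SE 0.13, edgeR quasi-likelihood test, adjusted p = 1.074e-10). In that comparison 50.4% of all genes tested were called.

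Among the lymphoid classes, CD8 cells had 97.1, 67.9 and 46.2 CPM of Il10ra, Foxp3 cells 82.7, 81.9 and 24.2 CPM, and B cells 72.95, 35.0 and 45.2 CPM. Conventional CD4 cells, the class with the highest mean level of the ligand, had 55.8, 49.3 and 12.1 CPM. Library 3 was the lowest in each of the T cell classes. NK cells had 21.8, 36.8 and 0 CPM, and plasma cells 11.1 and 8.87 CPM, the lowest mean of the 9 classes.

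Il10ra was lower in conventional CD4 than in CD8 cells, with a log2 difference of −0.75 (SE 0.20, adjusted p = 0.01656), in 3 of 3 libraries. This call was lost without library 1 (−0.72, adjusted p = 0.1542), with DESeq2 (−0.79, adjusted p = 0.07757) and without the block (−0.75, adjusted p = 0.7066). Foxp3 cells had more than conventional CD4 cells in 3 of 3 libraries, by 0.67 (SE 0.21, adjusted p = 0.08107), which did not pass. NK cells had less than CD8 cells (−1.57, SE 0.35, adjusted p = 0.004687, 7.76% of genes called), in 3 of 3 libraries. Without library 1 that difference was −1.12 (adjusted p = 0.2157), without library 3, where the 12 NK cells held no Il10ra UMI, it was −1.49 (adjusted p = 0.008435), and without the block it was −1.44 (adjusted p = 0.213). Plasma cells had less than B cells (−2.54, SE 0.37, adjusted p = 4.642e-06), in 2 of 2 libraries.

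Among the myeloid classes, macrophages had more Il10ra than conventional CD4 cells by 1.99 (SE 0.23, adjusted p = 1.014e-07), in 2 of 2 libraries. They did not pass the threshold against monocytes (−0.24, SE 0.24, adjusted p = 0.6087, 7.71% of genes called), and the sign turned without library 2 (0.093). Against dendritic cells they were higher by 0.77 (SE 0.25, adjusted p = 0.02597, 22.8% of genes called), in 2 of 2 libraries. This last call was lost without library 1 (0.76, adjusted p = 0.07756), without library 2 (0.97, adjusted p = 0.2831) and without the block (0.80, adjusted p = 0.4664).

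The means of Il10ra ran from macrophages (211 ± 46.9 CPM, SD, n = 2), monocytes (189.5 ± 87.7, n = 3) and dendritic cells (117.5 ± 11.6, n = 2) through CD8 (70.4 ± 25.6, n = 3), Foxp3 (62.9 ± 33.5, n = 3), B (51.1 ± 19.6, n = 3) and conventional CD4 cells (39.1 ± 23.6, n = 3) to NK (19.5 ± 18.5, n = 3) and plasma cells (10.0 ± 1.59, n = 2). Only between dendritic and CD8 cells did the ranges of neighbours not overlap.

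Il10rb, the shared chain, was present in all 9 classes at closer levels. Macrophages had 157 and 170 CPM and monocytes 130, 127.5 and 151 CPM, and no value of another class reached these. NK cells had 71.5, 99.2 and 41.4 CPM, plasma cells 66.8 and 70.2 CPM, and Foxp3 cells 79.7, 65.0 and 58.9 CPM. CD8 cells had 73.2, 74.5 and 38.5 CPM, conventional CD4 cells 61.4, 55.1 and 55.8 CPM, B cells 50.1, 42.0 and 71.0 CPM, and dendritic cells 37.1 and 62.2 CPM. Between macrophages and monocytes and between monocytes and NK cells the ranges did not overlap, whereas all lower neighbours in the order of the means overlapped.

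Macrophages had more Il10rb than conventional CD4 cells by 1.49 (SE 0.21, edgeR quasi-likelihood test, adjusted p = 2.795e-06) and more than dendritic cells by 1.63 (SE 0.26, adjusted p = 2.778e-05), in 2 of 2 libraries in both cases. Without library 2, which left the 11 macrophages of library 1, the difference from conventional CD4 cells was 1.24 (adjusted p = 0.095). The mean of the myeloid classes exceeded that of the lymphoid classes by 0.70 (SE 0.13, adjusted p = 7.005e-05), and by 0.45 without library 2 (adjusted p = 0.1774). No Il10rb difference passed between conventional CD4 and CD8 cells (−0.21, SE 0.18), Foxp3 and conventional CD4 cells (0.28, SE 0.19), conventional CD4 and B cells (0.25, SE 0.22), NK and CD8 cells (0.27, SE 0.25), plasma and B cells (0.45, SE 0.25) or macrophages and monocytes (0.32, SE 0.24).

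**Figure D5:**
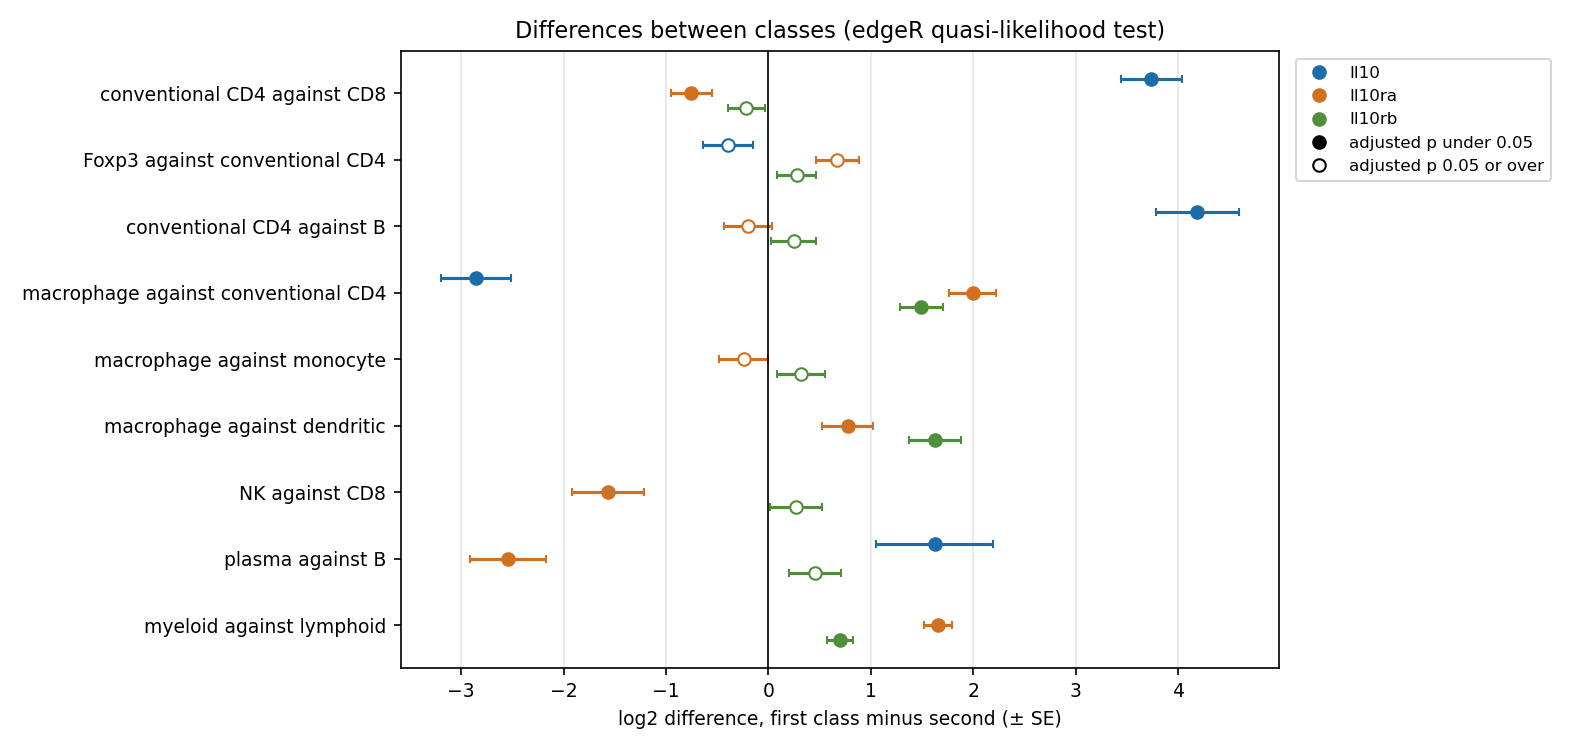
Log2 difference between the first and the second class named (x axis, edgeR quasi-likelihood test, bars are SE) for Il10, Il10ra and Il10rb in 9 comparisons (y axis); filled points have an adjusted p under 0.05. Il10 is left out where a class had at most 3 Il10 UMIs in each sum. Il10 and the receptor chains lay on opposite sides of 0 in the comparison of macrophages with conventional CD4 cells, at −2.86 against 1.99 and 1.49.

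Both chains were seldom captured in the same cell at matched depth. After thinning to 1000 UMIs, 13.6% of 2729 macrophages of library 2 had an Il10ra UMI and 12.9% an Il10rb UMI. Both were found in 62 of these cells, 2.27% (exact interval 1.75 to 2.90%), where the product of the single shares was 1.75%. In CD8 cells of library 1 both were found in 1.43% (0.741 to 2.49%), with a product of 1.19%, and in conventional CD4 cells of library 1 in 0 of 526, which allows a share up to 0.699% by the exact interval, with a product of 0.382%. The product lay inside the interval in these 3 cases, in the macrophages only just (1.754%, with a lower end of 1.746%). The interval takes the product as fixed, so it cannot decide whether the chains were captured independently, and this was not tested. Without thinning, 61.9% of the macrophages of library 2 had an Il10ra UMI and 62.1% an Il10rb UMI.

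The shares of monocytes with an Il10ra UMI were 17.2%, 19.2% and 12.5% after thinning, and those of conventional CD4 cells 6.27%, 5.54% and 0.654%. For Il10rb the shares were 19.0%, 9.17% and 6.25% in monocytes and 6.08%, 6.77% and 5.88% in conventional CD4 cells. Plasma cells had 1 and 0 cells with an Il10ra UMI of 56 and 122. No class was taken as lacking the receptor chains, so a level from free RNA was not set for them.

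The receptor chains were also compared between Il10-positive and other conventional CD4 cells, without a test. With an Il10 UMI, 6.38%, 5.76% and 0% of the thinned conventional CD4 cells of libraries 1 to 3 had an Il10ra UMI, against 6.25%, 5.49% and 0.725% without, with overlapping intervals in each library. For Il10rb the shares were 7.45%, 10.1% and 13.3% with, and 5.79%, 6.08% and 5.07% without, again with overlapping intervals. Across the 6 splits of conventional CD4 cells, 0 of 12 edgeR tests of Il10ra and Il10rb passed the threshold, 1 had an unadjusted p under 0.05, and DESeq2 called 0 as well. The differences ranged from −0.51 to 0.31 on the log2 scale.

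Among the signalling genes, the kinases Jak1 and Tyk2 and the transcription factor Stat3, 3 of 3 were tested. Between myeloid and lymphoid classes Jak1 was lower (log2 difference −1.28, SE 0.12), while Stat3 (0.02, SE 0.11) and Tyk2 (0.30, SE 0.21) did not pass, where 50.4% of all genes were called. Their median difference was 0.02, beside −0.04 for all genes tested. In plasma against B cells, Jak1 and Stat3 were lower (−1.88 and −1.56), 2 of 3, where 18.3% of all genes tested were called lower, with a median of −1.56 beside −0.04 for all genes. None of the 3 passed between conventional CD4 and CD8 cells or between Foxp3 and conventional CD4 cells.

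Of 9 genes known to be induced by IL-10 in myeloid cells, 8 were tested and Cd163 was not. In the myeloid classes 7 of 8 were higher than in the lymphoid classes, where 26.5% of all genes tested were called higher, and Ddit4, a stress-induced inhibitor of mTOR signalling, was lower (−1.94, SE 0.23). Il1rn, the interleukin 1 receptor antagonist, was at 372 ± 214 CPM in macrophages (n = 2) and 428 ± 62.4 CPM in monocytes (n = 3), and at 13.3 CPM or less on average in each lymphoid class. Socs3, an inhibitor of cytokine receptor signalling, was at 652 ± 187 CPM in macrophages, 361 ± 155 CPM in monocytes and 184 ± 33.7 CPM in conventional CD4 cells. The median difference was 1.09, beside −0.04 for all genes. In macrophages against conventional CD4 cells 5 of 8 were higher, Socs3 (1.76), Bcl3 (0.74), Il1rn (4.41), Sbno2 (1.29) and Il4ra (1.38), and 1 was lower, where 21.2% of all genes tested were called higher. Against dendritic cells Socs3 (1.49) and Il1rn (4.18) were higher and Etv3 (−1.53) lower, 3 of 8, where 22.8% of all genes were called. In macrophages against monocytes 0 of 8 passed, where 7.71% were called. Differences were also found between lymphoid classes. In Foxp3 against conventional CD4 cells Bcl3 (1.06), Il4ra (0.97) and Ddit4 (1.275) were higher, 3 of 8, where 3.73% of all genes were called. In conventional CD4 against B cells 4 of 8 were higher and 2 lower, where 30.1% were called. In plasma against B cells 5 of 8 were lower, where 18.3% of all genes tested were called lower. These genes answer many signals besides IL-10.

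Of 9 regulators of Il10 in T cells, 4 were higher in conventional CD4 than in CD8 cells: Maf (2.17, SE 0.23), Ahr (1.11), Irf4 (1.14) and Gata3 (1.21), where 5.61% of all genes tested were called higher. Tbx21, the Th1 and effector CD8 factor, was lower (−0.67, SE 0.19). Maf stood at 257 ± 20.0 CPM in conventional CD4 cells, 368 ± 113 CPM in Foxp3 cells and 60.0 ± 13.4 CPM in CD8 cells (SD, n = 3), so its order among these T cell classes ran with that of Il10 except between the first 2. Prdm1 did not pass between conventional CD4 and CD8 cells (0.09, SE 0.19). The median difference of the 9 was 0.60, beside 0.0027 for all genes. Foxp3 cells had more Ahr (0.97) and less Irf4 (−1.14) and Bhlhe40 (−1.23) than conventional CD4 cells, with 6 of 9 not passing, where 3.73% of all genes were called. In the split by Tcf7, Maf (−1.22), Prdm1 (−1.91), Tbx21 (−0.98) and Nfil3 (−0.75) were lower in cells with Tcf7, 4 of 9, as Il10 was, where 2.12% of all genes tested were called lower.

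None of the 6 other ligands of the family (Il19, Il20, Il22, Il24, Ifnl2 and Ifnl3) and none of the 5 other receptor chains (Il20ra, Il20rb, Il22ra1, Il22ra2 and Ifnlr1) passed the filter on low counts. Il10 was therefore the ligand of the family list that could be tested, and no mean of the other receptor chains exceeded 3.02 CPM in any class.

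The genes whose levels over the 24 sums ran most closely with each member were named by Pearson correlation of log2(CPM + 1), with the mean of each library removed, among 5430 genes. For Il10 they were Izumo1r (0.92), the folate receptor FR4 of regulatory and anergic T cells, Cd40lg (0.90), the CD40 ligand of helper T cells, Spry1 (0.90), Tnfrsf4 (0.90), which encodes OX40, and Cd5 (0.90). For Il10ra they were Svbp (0.90), Sbno2 (0.90), Myd88 (0.90), an adaptor of Toll-like receptors, Hexa (0.90), a lysosomal enzyme, and Rnf213 (0.89). For Il10rb they were Fcgr3 (0.88) and Fcgr4 (0.86), receptors for IgG, Acod1 (0.87), which makes itaconate, Sod2 (0.86) and Ninj1 (0.86). Sums of 1 library share mice and depth, and classes differ in many genes at once, so these values are a description. Among the members, Il10ra and Il10rb had a correlation of 0.51, and Il10 had −0.04 with Il10ra and −0.17 with Il10rb.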

How the data were processed

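The authors sorted CD45+ cells, made 10x Genomics single-cell libraries and mapped them to mm10 with Cell Ranger (5.0.1 for library 1, 6.1.2 for libraries 2 and 3, per the file headers). The deposited matrices hold raw UMI counts per gene and cell. Library 1 came without gene names and took the row order of the others, checked by the correlation of summed counts across genes (Spearman 0.95 and 0.93, against 0.36 and 0.32 with rows shifted by 1). Cells were kept by the study's filter: at least 300 UMIs, at most 5000 genes and at most 20% mitochondrial UMIs. A class needed its own markers and more than 2 times as many UMIs of them as of certain other lists. Macrophages had only to exceed the monocyte sum, monocytes the dendritic sum and dendritic cells the monocyte sum. T and B cells were not compared with the monocyte or NK lists, and plasma cells not with the B list. NK cells held no Cd3d, Cd3e or Cd3g UMI. T cells were split by Cd4, Cd8a, Cd8b1 and Foxp3. Doublets were not removed, since the automatic Scrublet call marked 0, 0 and 2 cells. Removing the 118, 545 and 19 highest scores was an alternative.

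UMIs were summed per library and class and tested with edgeR 4.0.16 (quasi-likelihood test, TMM, filterByExpr, library as a block, Benjamini-Hochberg over all genes, threshold 0.05) in R 4.3.3. The block pairs the classes because classes of 1 library come from the same mice. DESeq2 1.42.0 was an alternative. The edgeR step was tested on simulated data. Libraries are the replicates, and with 1 group no effect of disease could be tested. Shares were taken after thinning cells to 1000 UMIs.

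The 3 genes, the lists and the comparisons were chosen with earlier results of these data known. Named genes are the members, the pathway list, the markers and the 5 genes most correlated with each member (mean of at least 20 CPM). A gene of the signalling list is not reported here. The division by T cell marker UMIs and by Il10 UMIs was added after the values were seen.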

Additional observations from a re-analysis of the deposited data

Results flagged for a closer look

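Some Il10 UMIs stood in cells that none of the comparisons used. T cells that fitted none of the 3 T cell classes held 396, 321 and 55 Il10 UMIs in libraries 1, 2 and 3, and cells outside every gate held 107, 86 and 9, more than the limit of 3 that a count of 0 allows. Among the T cells of library 1, the 423 with no Cd4, Cd8 or Foxp3 UMI had 72 Il10 UMIs (44.7 unscaled CPM), the 195 with Cd4 and Cd8 UMIs had 142 (97.9 CPM), and the 180 with Foxp3 and Cd8 UMIs had 182 (126 CPM). In library 2 the same 3 sets of 1294, 91 and 113 cells had 160, 67 and 94 (40.1, 86.1 and 76.6 CPM). In library 3 all 55 were in the 574 T cells with no such UMI (47.0 CPM). The cells with Cd8 UMIs beside Cd4 or Foxp3 UMIs were also deeper, with medians of 5418 and 6328.5 UMIs in library 1 against 3055. The part of depth or of doublets in these values was not tested.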

How the results depend on the processing

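Over 11 alternatives, Il10 kept its direction and its call between conventional CD4 and CD8 cells (3.599 to 3.95), conventional CD4 and B cells (2.68 to 5.36) and macrophages and conventional CD4 cells (−6.04 to −2.78), and in the split by Tcf7 (−5.84 to −2.98), as did Il10ra between macrophages and conventional CD4 cells (1.81 to 2.32), plasma and B cells (−9.32 to −2.21) and myeloid and lymphoid classes (1.54 to 1.77). Without the replicate block, these calls were lost: Il10ra in conventional CD4 against CD8 cells (−0.75), macrophages against dendritic cells (0.80) and NK against CD8 cells (−1.44), and Il10 in plasma against B cells (1.74) and in the splits by Prdm1 (1.17), Maf (1.63), Cxcr6 (1.13) and Il21 (0.94); it changed no other call the report gives for the 3 genes. With DESeq2 the calls lost were Il10ra in conventional CD4 against CD8 cells (−0.79) and Il10 in plasma against B cells (1.64) and in the splits by Prdm1 (1.12), Cxcr6 (1.07) and Il21 (0.78). With strict gates, as described above, Il10ra lost the call in conventional CD4 against CD8 cells (−0.77) and NK against CD8 cells (−1.28). Under the same gates, Il10 in plasma against B cells turned to −0.30 and Il10ra in macrophages against monocytes to 0.0096. Il10 also passed there in the split by Ifng (0.74). With gates needing only more own than other marker UMIs, Il10 lost the call in plasma against B cells (0.16) and passed in the split by Ifng (0.58). With sums of at least 20 cells, Il10ra lost the call in macrophages against dendritic cells (0.72), and with no filter on low counts it passed in Foxp3 against conventional CD4 cells (0.68). The cause of these changes was not tested.

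Leaving out 1 library in turn, Il10ra ranged from −0.93 to −0.65 in conventional CD4 against CD8 cells, −0.33 to 0.093 in macrophages against monocytes, 0.76 to 0.97 in macrophages against dendritic cells and −2.36 to −1.12 in NK against CD8 cells, and −0.49 to 0.082 in conventional CD4 against B cells, where it turned without library 1. Il10rb ranged from 1.24 to 1.62 in macrophages against conventional CD4 cells and from 0.45 to 0.81 in myeloid against lymphoid classes. Il10 ranged from 0.39 to 2.19 in plasma against B cells, 0.97 to 1.28 in the split by Prdm1 and 0.73 to 1.37 in that by Cxcr6. The split by Il21 could not be fitted without library 1 or library 2, since 1 library would then remain. In the splits, 0 receptor chain tests passed under each of the 11 alternatives.

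Genes called without and with the block numbered 253 and 891 for conventional CD4 against CD8 cells, 42 and 359 for Foxp3 against conventional CD4 cells, 1601 and 2901 for conventional CD4 against B cells, 1979 and 3767 for macrophages against conventional CD4 cells, 147 and 743 against monocytes, 959 and 2192 against dendritic cells, 335 and 748 for NK against CD8 cells, 2260 and 3696 for plasma against B cells, and 1 to 6 and 103 to 270 in the splits. DESeq2 called 11 to 122 genes in the splits and 420 for macrophages against monocytes. Over the other alternatives the splits gave 17 to 501, and the class counts fell most to 770 for macrophages against conventional CD4 cells, 88 against monocytes, 457 against dendritic cells and 2392 (of 4858) for myeloid against lymphoid classes, each without library 2.

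The shares depended on depth. The mean share of cells with an Il10 UMI was 8.39% in conventional CD4, 9.33% in Foxp3 and 0.835% in CD8 cells after thinning to 1000 UMIs, and 14.7%, 22% and 2.52% without thinning; thinning to 600 UMIs gave 7.45%, 5.90% and 0.400%. For Il10ra the means were 0.893% in plasma cells, 24.96% in macrophages and 16.3% in monocytes, and 6.44%, 58.2% and 57.6% without thinning, and 600 UMIs gave 6.52% in monocytes. Depth limited the values: library 3 held 110 Il10 UMIs, its sums of macrophages, plasma cells and dendritic cells were too small, and macrophage values rest on library 2 and 11 cells of library 1.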
